A study of Arabidopsis thaliana with 5 samples.

Results

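Nicotianamine is a small metal chelator that plants make from S-adenosylmethionine with nicotianamine synthase (NAS). It binds iron, copper, zinc and manganese and keeps them soluble on their way through the root, the xylem and the phloem. Transporters of the yellow stripe-like (YSL) and oligopeptide transporter (OPT) families move metals or their nicotianamine complexes across membranes, and ZIF1 moves nicotianamine into the vacuole. The 9 genes described here are the 4 synthase genes NAS1 to NAS4, the transporter genes YSL1, YSL2, YSL3 and OPT3, and ZIF1. They were picked by gene identifier from the 33557 features listed for each library, and all 9 were found.

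The values come from RNA-seq of Arabidopsis thaliana roots. GFP-GrxS5 roots (2 libraries) carry green fluorescent protein joined to GrxS5, one of the glutaredoxins, which are small thiol proteins. Neither the construct nor its promoter, the number of lines, the plants' age or their growth conditions are given in the labels. Col-0 roots (3 libraries) are the wild type. The study asked which genes GrxS5 represses.

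GrxS5 (AT4G15690) had 103 and 124 FPKM in GFP-GrxS5 roots, against 3.06, 4.14 and 3.23 FPKM in Col-0 roots, so the targeted gene followed the labels. FPKM scale the fragments of a gene by transcript length and library depth, so levels of different genes can be compared. Estimated depth was 3390000 to 4470000 fragments per library. At that depth 1 FPKM on a transcript of 1500 bases rests on 5.08 to 6.70 fragments. All 8 root markers were detected and none passed the test. The lowest of them, PLT1 (log2 difference -0.60, SE 0.15; limma, Benjamini-Hochberg adjusted p = 0.0564), passed under quantile normalization (0.0433) and ranged up to 0.165 over the alternatives. Of 12 tested shoot photosynthesis markers, 10 rose in GFP-GrxS5 roots and 0 fell, beside 4.73% and 2.35% of all tested genes. The summed level of the 14 on the list was 1423 to 1433 FPKM in GFP-GrxS5 roots and 593 to 709 FPKM in Col-0 roots. None of the 14 was at 0 in both genotypes, while RBCS2B was listed at 0 in Col-0 replicates 1 and 2. The 10 markers became 6 without GFP-GrxS5 replicate 1, 6 without GFP-GrxS5 replicate 2 and 5 with variances moderated without a trend. The part of these markers in the results below was not tested. In bulk roots, fewer cells of a type and less RNA per cell cannot be told apart.

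Transcripts of the nicotianamine pathway were lower in GFP-GrxS5 roots at the synthases NAS1 and NAS4 and at the transporter YSL2, and higher at the vacuolar transporter ZIF1. NAS2, OPT3 and YSL3 were expressed and did not pass the test. NAS3 and YSL1 were below the filter on low values. Each gene was tested in 1 fit over all 19693 genes that reached 1 FPKM in at least 2 libraries, and a change was called where limma gave an adjusted p (Benjamini-Hochberg) below 0.05. Of the 7 members tested, 3 were called lower and 1 higher, where 7.08% of all tested genes were called, 2.35% as lower and 4.73% as higher. The 2 genotypes did not overlap in 6 of the 7, which held for 42.8% of all tested genes. The members were chosen with earlier results of these data known, so neither comparison tests them as a set. The count of 4 called members became 3 without Col-0 replicate 1, 2 without Col-0 replicate 2, 3 without Col-0 replicate 3 and 1 without either GFP-GrxS5 replicate.

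**Figure D1:**
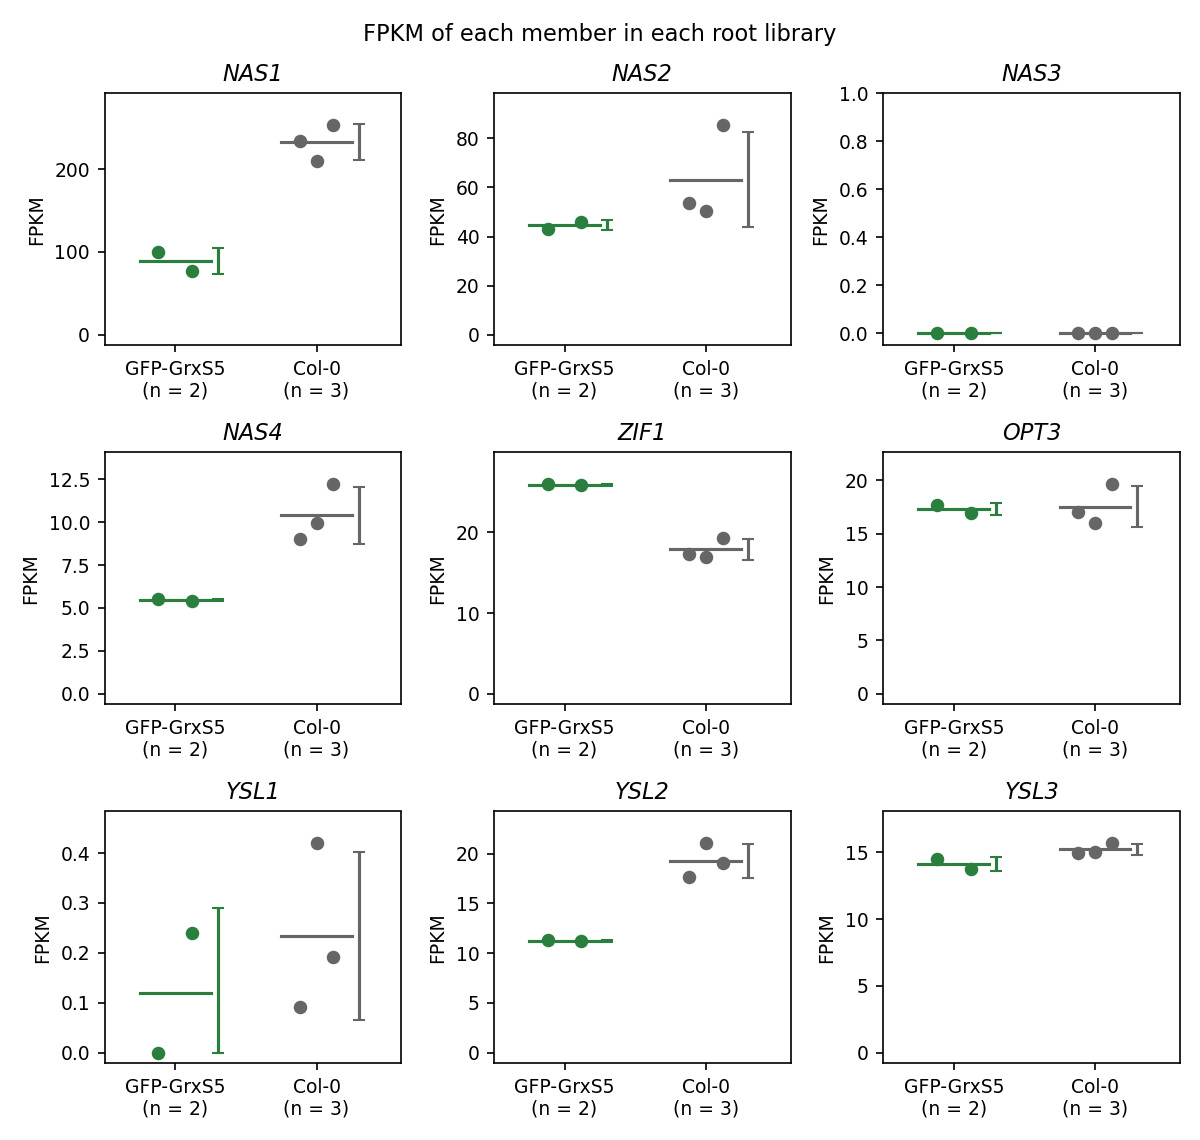
FPKM (y axis, linear, a scale per panel) of the 9 genes in the 2 GFP-GrxS5 (green, left) and 3 Col-0 (grey, right) root libraries. Points are libraries, horizontal lines means and bars SD, cut at 0 for YSL1. The genotypes are apart in NAS1, NAS4, YSL2 and ZIF1, which were called, and in NAS2 and YSL3, which were not. They overlap in OPT3 and YSL1, and NAS3 is at 0 throughout.

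NAS1 (AT5G04950; TAIR10, chr5:1457645-1458890, a protein-coding gene of 1 exon) was the most abundant synthase transcript. Its level was 100.1 and 77.4 FPKM in the GFP-GrxS5 libraries, against 234, 209.7 and 253 FPKM in the Col-0 libraries. Both GFP-GrxS5 values lay below every Col-0 value by more than the spread within either genotype. NAS1 averaged 88.8 ± 16.0 FPKM (SD, n = 2) in GFP-GrxS5 roots and 233 ± 22.0 FPKM (SD, n = 3) in Col-0 roots, a log2 change of -1.39 (SE 0.12) and 0.382 times the Col-0 level on the FPKM + 1 scale (limma, Benjamini-Hochberg adjusted p = 0.00169). Among the 19693 tested genes, 77 had a more negative log2 change. Its call held under all 13 alternatives, with limma adjusted p-values (Benjamini-Hochberg) of 0.00133 to 0.0223 and a log2 change of -1.57 to -1.204 with 1 library left out.

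NAS4 (AT1G56430; TAIR10, chr1:21136944-21138087, 1 exon) had 5.49 and 5.40 FPKM in GFP-GrxS5 roots, against 8.999, 9.94 and 12.2 FPKM in the Col-0 libraries. The GFP-GrxS5 libraries lay close together and below all Col-0 libraries. The mean was 5.44 ± 0.0643 FPKM (SD, n = 2) in GFP-GrxS5 roots and 10.4 ± 1.66 FPKM (SD, n = 3) in Col-0 roots, a log2 change of -0.81 (SE 0.16; limma, Benjamini-Hochberg adjusted p = 0.0285). These values rest on about 28.1 and 20.9 fragments in GFP-GrxS5 and 44.3 to 59.7 in Col-0, for which counting alone gives an SD of 18.9% and 21.9% of the value, and of 12.9% to 15.03%. The call was lost without Col-0 replicate 2 or 3 (adjusted p = 0.0733 and 0.0766, limma with Benjamini-Hochberg) and without GFP-GrxS5 replicate 1 or 2 (0.102 and 0.108), and the alternatives together ran from 0.0239 to 0.11. The log2 change stayed between -0.908 and -0.699 in them.

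NAS2 (AT5G56080; TAIR10, chr5:22711402-22712364, 1 exon) had 43.2 and 46.1 FPKM in the GFP-GrxS5 libraries, against 53.6, 50.5 and 85.5 FPKM in the Col-0 libraries. The Col-0 spread came from replicate 3. Among the Col-0 libraries this replicate also held the highest values of NAS1, NAS4, OPT3, ZIF1 and YSL3, but not of YSL2. NAS2 averaged 44.7 ± 2.02 FPKM (SD, n = 2) in GFP-GrxS5 roots and 63.2 ± 19.4 FPKM (SD, n = 3) in Col-0 roots. Its log2 difference was -0.45 with a 95% interval from -0.94 to 0.04, and its adjusted p was 0.239 (limma, Benjamini-Hochberg). Without Col-0 replicate 3 the log2 difference was -0.22 (SE 0.10). NAS3 (AT1G09240) was listed at 0 in all 5 libraries. A count of 0 allows up to 3 fragments, or 0.537 to 0.708 FPKM at the estimated depths, counting error only.

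Summed over the 4 synthase genes, the level was 149 and 129 FPKM in the GFP-GrxS5 libraries, against 297, 270.1 and 351 FPKM in the Col-0 libraries. The mean sum was 139 ± 14.0 FPKM (SD, n = 2) in GFP-GrxS5 roots and 306 ± 41.3 FPKM (SD, n = 3) in Col-0 roots, a ratio of 0.454. NAS1 supplied 67.3% and 60.1% of the sum in the GFP-GrxS5 libraries and 78.9%, 77.6% and 72.2% in the Col-0 libraries. NAS2 supplied 29.1% and 35.7% in GFP-GrxS5 and 18.0%, 18.7% and 24.3% in Col-0, and NAS4 between 3.03% and 4.19% in all 5. The genotypes did not overlap in the sum or in the NAS1 share (two-sided exact permutation test over libraries, p = 0.1 for both, which is the smallest that 10 arrangements of 2 and 3 libraries allow). The difference in the NAS1 share was -12.6 percentage points, and -16.2 without GFP-GrxS5 replicate 1 and -8.99 without GFP-GrxS5 replicate 2.

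**Figure D2:**
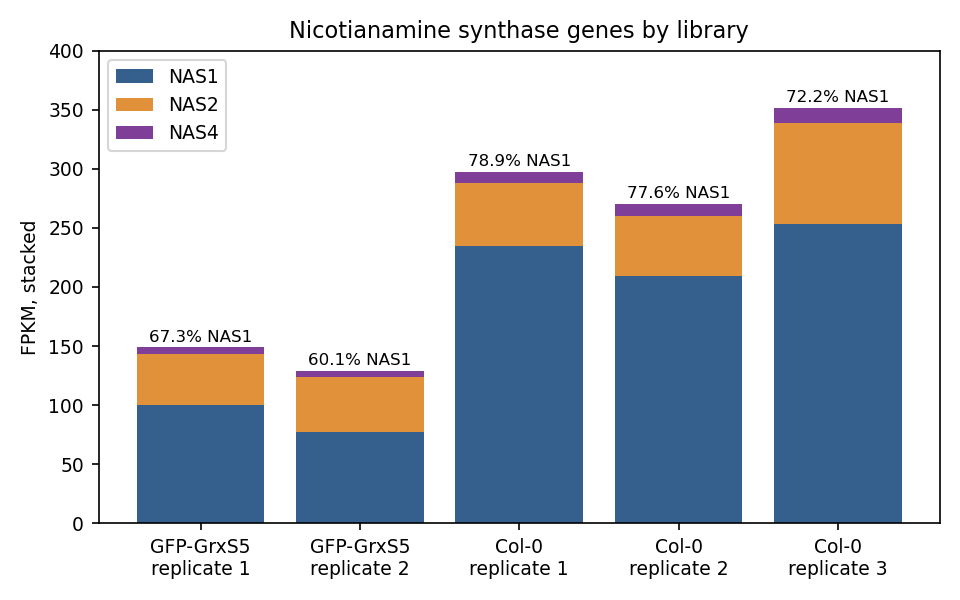
Stacked FPKM (y axis) of NAS1, NAS2 and NAS4 in each library (x axis), GFP-GrxS5 on the left and Col-0 on the right, with the NAS1 share above each bar; NAS3 is at 0. The GFP-GrxS5 sums are 149 and 129 FPKM and the Col-0 sums run from 270.1 to 351 FPKM.

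The synthase genes resemble each other, which bears on how reads were divided among them. Their coding sequences on TAIR10.1 were 82.8% identical between NAS1 and NAS2, 79.1% between NAS3 and NAS4, and 66.7% to 68.9% in the other 4 pairs. The longest run of bases shared by the NAS1 and NAS2 transcripts was 49 and no pair of NAS transcripts shared a run of 50. The handling of shared reads is not given, so how reads were split among the synthase genes is uncertain. The locus that the files give for NAS2 spans 963 bases, the length of its coding sequence, so its level refers to the coding part.

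ZIF1 (AT5G13740; TAIR10, chr5:4432306-4436668) encodes the tonoplast transporter that puts nicotianamine into the vacuole and with it holds zinc in root cells. It had 26.01 and 25.8 FPKM in the GFP-GrxS5 libraries, against 17.3, 17.0 and 19.3 FPKM in the Col-0 libraries. It was the one member higher in both GFP-GrxS5 libraries than in every Col-0 library. These GFP-GrxS5 values rest on about 221 and 167 fragments. Counting alone gives them an SD of 6.72% and 7.75%, so their closeness overstates the precision. The mean was 25.9 ± 0.127 FPKM (SD, n = 2) in GFP-GrxS5 roots and 17.9 ± 1.26 FPKM (SD, n = 3) in Col-0 roots, a log2 change of 0.51 (SE 0.10; limma, Benjamini-Hochberg adjusted p = 0.0289). That call did not hold without Col-0 replicate 1 or 2 (adjusted p = 0.0841 and 0.0895, limma with Benjamini-Hochberg) or without GFP-GrxS5 replicate 1 or 2 (0.114 and 0.109), and the alternatives together ran from 0.022 to 0.114. The change itself was 0.477 to 0.568 over the alternatives. Its neighbour and relative ZIFL1, which lies 1531 bases away, had a log2 difference of -0.09 (SE 0.12).

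YSL2 (AT5G24380; TAIR10, chr5:8323895-8329490 for the locus, which it shares with AT5G24390) encodes a transporter studied in the root vasculature, where it has been linked to the lateral movement of metals. It had 11.3 and 11.2 FPKM in the GFP-GrxS5 libraries, against 17.6, 21.1 and 19.1 FPKM in the Col-0 libraries. The GFP-GrxS5 libraries agreed closely and lay well below the lowest Col-0 library. They rest on about 120 and 90.2 fragments, for which counting alone gives an SD of 9.12% and 10.5% of the value. Their closeness therefore overstates the precision. The Col-0 values rest on about 187 to 195 fragments, with a counting SD of 7.16% to 7.31%. YSL2 averaged 11.3 ± 0.0838 FPKM (SD, n = 2) in GFP-GrxS5 roots and 19.3 ± 1.74 FPKM (SD, n = 3) in Col-0 roots, a log2 change of -0.72 (SE 0.12; limma, Benjamini-Hochberg adjusted p = 0.0139). Without GFP-GrxS5 replicate 1 or 2 the call was lost (adjusted p = 0.0676 and 0.0672, limma with Benjamini-Hochberg; 0.0102 to 0.0676 over the alternatives), while the log2 change stayed between -0.782 and -0.659. On TAIR10.1 the 3' ends of YSL2 and AT5G24390, on opposite strands, overlap by 99 bases. AT5G24390 itself had a log2 difference of -0.03 (SE 0.15; limma, Benjamini-Hochberg adjusted p = 0.936).

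YSL3 (AT5G53550; TAIR10, chr5:21755291-21758921) encodes a close relative that, with YSL1, moves metal-nicotianamine complexes out of leaf veins and into seeds. It had 14.5 and 13.8 FPKM in the GFP-GrxS5 libraries, against 14.96, 15.004 and 15.7 FPKM in the Col-0 libraries. The groups were separate by a narrow margin, and the log2 difference of -0.10 had a 95% interval from -0.35 to 0.15 (adjusted p = 0.618, limma with Benjamini-Hochberg). YSL1 (AT4G24120) had 0 and 0.24 FPKM in GFP-GrxS5 roots and 0.0906, 0.42 and 0.191 FPKM in Col-0 roots, which corresponds to about 0 and 1.98 fragments in GFP-GrxS5 and 0.984, 3.97 and 1.99 fragments in Col-0. With no filter on low values its log2 difference was -0.14 (SE 0.18; limma, Benjamini-Hochberg adjusted p = 0.713), so no difference in YSL1 was detectable at this depth.

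OPT3 (AT4G16370; TAIR10, chr4:9247302-9250091) encodes a transporter of phloem companion cells that loads iron into the phloem and is needed for the shoot's iron status to reach the root. It had 17.7 and 16.9 FPKM in the GFP-GrxS5 libraries, against 17.0, 16.0 and 19.7 FPKM in the Col-0 libraries. The GFP-GrxS5 values fell inside the Col-0 range. The log2 difference was -0.01 with a 95% interval from -0.30 to 0.27 (adjusted p = 0.963, limma with Benjamini-Hochberg), and its sign turned without Col-0 replicate 3 (0.068) and without GFP-GrxS5 replicate 2 (0.017). Of 8 phloem and vascular markers, 1 was higher and 0 lower, beside 4.73% and 2.35% of all tested genes. The companion cell sucrose transporter gene SUC2 had a log2 difference of 0.39 (SE 0.10; limma, Benjamini-Hochberg adjusted p = 0.0655), while the phloem genes APL and SEOR1 had -0.19 (SE 0.17) and -0.06 (SE 0.12). HKT1, a sodium transporter gene, was the marker that rose (log2 change 3.17, SE 0.18; limma, Benjamini-Hochberg adjusted p = 3.41e-04).

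**Figure D3:**
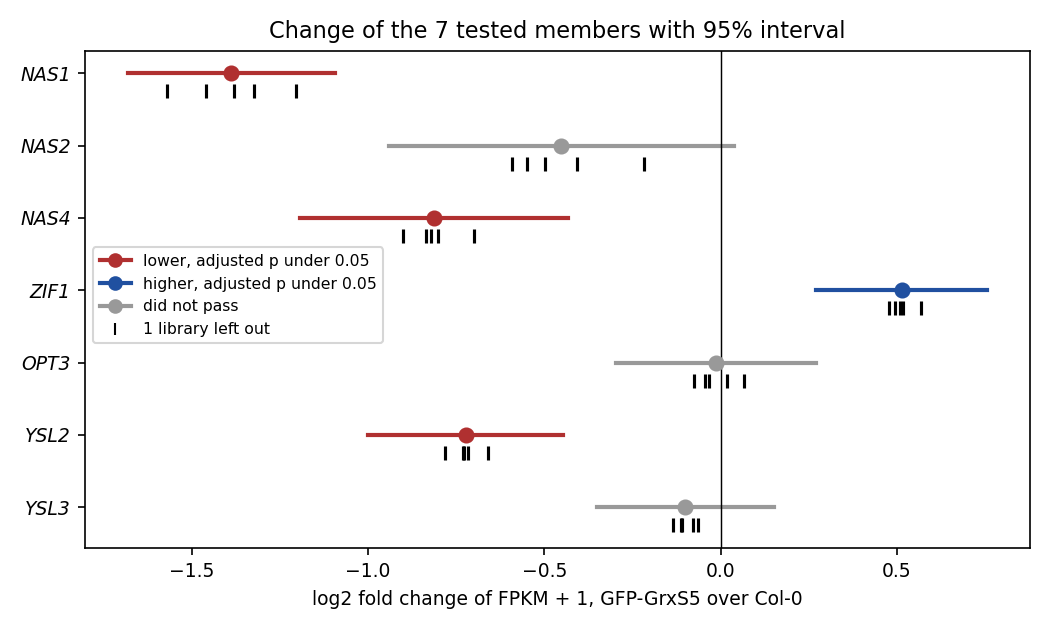
Log2 fold change of FPKM + 1 (x axis, GFP-GrxS5 over Col-0) of the 7 tested genes, with lines for the 95% interval, red for lower, blue for higher and grey for not passed; black ticks give the value with each of the 5 libraries left out. NAS1, at -1.39, lies farthest from 0, and the intervals of NAS2, OPT3 and YSL3 include 0.

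The order of the levels differed between the genotypes below NAS1 and NAS2, which ranked first and second in both. In GFP-GrxS5 roots ZIF1 came next, then OPT3, YSL3, YSL2 and NAS4. The ranges of neighbours in that order did not overlap, but a range of 2 libraries is narrower on average than one of 3. Counting alone gives an SD of 7.19% and 8.44% for OPT3 and 7.43% and 8.76% for YSL3 in GFP-GrxS5. The order is therefore less firm than these ranges show. In Col-0 roots YSL2 came next by mean, and its range of 17.6 to 21.1 FPKM overlapped those of ZIF1 (17.0 to 19.3 FPKM) and OPT3 (16.0 to 19.7 FPKM), so these 3 did not differ beyond their spread. YSL3 followed and NAS4 was the lowest of the 7. YSL2 thus stood above YSL3 in each Col-0 library and below it in each GFP-GrxS5 library.

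The sequences before the starts of these genes were read to show what lies there in the 4 genes that were called and in OPT3, which was not. Each is the 250 bases before the RefSeq gene start on TAIR10.1, 5' to 3' on the gene's strand, in lower case with matches to any of 4 motifs in capitals. RefSeq starts lie upstream of the gene bounds printed above for OPT3 (9250343 against 9250091), NAS1 (1459039 against 1458890), NAS4 (21136835 against 21136944) and ZIF1 (4432297 against 4432306). For YSL2 they are the same. With the bounds printed above, the windows and offsets of those 4 genes would differ. The motifs, searched on both strands, were the G-box CACGTG, bound by many bHLH and bZIP factors, TGACG, the core bound by TGA factors, TGTCGACA, the core of the zinc deficiency element, and GTAC, the core of the copper response element. No matches of different motifs overlapped in the 5 windows.
NAS1 (chr5:1459040-1459289, minus strand): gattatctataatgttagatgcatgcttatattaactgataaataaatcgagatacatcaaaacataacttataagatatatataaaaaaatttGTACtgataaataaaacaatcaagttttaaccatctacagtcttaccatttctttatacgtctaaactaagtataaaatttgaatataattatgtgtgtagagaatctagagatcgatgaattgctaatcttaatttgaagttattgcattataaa
NAS4 (chr1:21136585-21136834, plus strand): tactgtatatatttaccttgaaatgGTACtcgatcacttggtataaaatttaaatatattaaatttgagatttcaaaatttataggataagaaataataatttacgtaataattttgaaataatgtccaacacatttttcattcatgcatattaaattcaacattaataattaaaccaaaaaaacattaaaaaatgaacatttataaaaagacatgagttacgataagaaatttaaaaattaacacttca
YSL2 (chr5:8323645-8323894, plus strand): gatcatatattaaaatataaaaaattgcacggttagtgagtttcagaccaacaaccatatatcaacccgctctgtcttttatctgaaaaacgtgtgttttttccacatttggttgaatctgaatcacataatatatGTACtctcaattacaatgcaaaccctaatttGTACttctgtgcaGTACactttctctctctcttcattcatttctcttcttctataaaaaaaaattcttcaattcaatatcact
ZIF1 (chr5:4432047-4432296, plus strand): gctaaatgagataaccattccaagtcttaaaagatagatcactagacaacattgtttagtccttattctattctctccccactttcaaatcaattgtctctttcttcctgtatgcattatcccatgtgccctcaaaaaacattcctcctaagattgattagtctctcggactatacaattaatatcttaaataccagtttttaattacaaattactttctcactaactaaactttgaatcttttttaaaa
OPT3 (chr4:9250344-9250593, minus strand): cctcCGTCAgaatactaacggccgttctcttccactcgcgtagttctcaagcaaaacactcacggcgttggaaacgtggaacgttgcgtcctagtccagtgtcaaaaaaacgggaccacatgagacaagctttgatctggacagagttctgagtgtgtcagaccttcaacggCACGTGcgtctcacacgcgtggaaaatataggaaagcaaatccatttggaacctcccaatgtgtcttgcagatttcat

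The NAS1 and NAS4 windows each held 1 GTAC, with its first base at -156 and -225 from the start, and the YSL2 window held 3, at -114, -83 and -70. The ZIF1 window held none of the 4 motifs. OPT3, which did not pass the test, held a G-box at -78 and a TGACG match at -246. Over the windows of all 9 members, GTAC was found in 6 (NAS1, NAS4, YSL2, NAS2, YSL3 and NAS3). Of these, NAS2 and YSL3 did not pass the test and NAS3 was not tested. TGACG was found in 3 (OPT3, NAS2 and YSL3), the G-box in 1 and the zinc core in 0. Of 27443 protein-coding genes, 34.3% held GTAC in the same window, 18.6% TGACG, 6.49% the G-box and 0.262% the zinc core. A match is a stretch of letters and not a binding site.

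Nicotianamine synthase uses S-adenosylmethionine and releases methylthioadenosine, which is recycled to methionine. Of the 4 S-adenosylmethionine synthetase genes, 2 fell and 0 rose, beside 2.35% and 4.73% of all tested genes. SAM1 had 815 and 745 FPKM in the GFP-GrxS5 libraries, against 1125, 997 and 1068 FPKM in the Col-0 libraries, a log2 change of -0.45 (SE 0.08; limma, Benjamini-Hochberg adjusted p = 0.0199). MAT3 had 521 and 487 FPKM in the GFP-GrxS5 libraries, against 699, 640.2 and 694 FPKM in the Col-0 libraries, a log2 change of -0.43 (SE 0.07; limma, Benjamini-Hochberg adjusted p = 0.0162). In both genes the GFP-GrxS5 libraries lay below all Col-0 libraries, and both calls were lost without Col-0 replicate 1, Col-0 replicate 3 or GFP-GrxS5 replicate 2 (adjusted p up to 0.088 for SAM1 and 0.0759 for MAT3, limma with Benjamini-Hochberg; 0.0145 to 0.154 and 0.0124 to 0.145 over the alternatives). SAM2 and MTO3 had log2 differences of -0.02 (SE 0.06) and -0.16 (SE 0.06) and did not pass. The coding sequences of SAM1 and SAM2 were 88.2% identical on TAIR10.1, with a longest shared run of 47 bases, and the other 5 pairs were 77.7% to 80.6% identical. How reads were split among them is uncertain.

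Methylthioadenosine recycling went both ways: of 9 genes 8 were tested, 2 fell and 1 rose, beside 2.35% and 4.73% of all tested genes. The median log2 difference was -0.05 beside 0.01 over all tested genes. MTK, the methylthioribose kinase gene, stood at 44.7 ± 6.78 FPKM (SD, n = 2) in GFP-GrxS5 and 61.4 ± 0.731 FPKM (SD, n = 3) in Col-0 roots, a log2 change of -0.46 (SE 0.10). MTI1 (AT2G05830), the gene of the next enzyme, an isomerase, stood at 58.1 ± 0.468 FPKM (SD, n = 2) in GFP-GrxS5 and 74.6 ± 1.45 FPKM (SD, n = 3) in Col-0 roots, a log2 change of -0.35 (SE 0.07). ARD1 (AT4G14716, which the files name ARD2), one of 4 acireductone dioxygenase genes, was at 134 ± 3.73 FPKM (SD, n = 2) in GFP-GrxS5 and 108 ± 4.15 FPKM (SD, n = 3) in Col-0 roots, a log2 change of 0.31 (SE 0.07; limma, Benjamini-Hochberg adjusted p = 0.0414, 0.0277 and 0.0421 for MTK, MTI1 and ARD1). ARD4 had a log2 difference of 0.38 (SE 0.11) and did not pass. MTK lost its call without any 1 Col-0 replicate or GFP-GrxS5 replicate 2, and MTI1 and ARD1 without any 1 of the 5 libraries (adjusted p up to 0.14, 0.103 and 0.151, limma with Benjamini-Hochberg; 0.0289 to 0.14, 0.0156 to 0.124 and 0.0387 to 0.194 over the alternatives).

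Of the 5 other YSL genes, all tested, 1 rose and 0 fell, beside 4.73% and 2.35% of all tested genes. Their median log2 difference was -0.19. YSL5 had 22.9 and 22.2 FPKM in the GFP-GrxS5 libraries, against 16.8, 15.04 and 16.1 FPKM in the Col-0 libraries (log2 change 0.47, SE 0.10; limma, Benjamini-Hochberg adjusted p = 0.0394), a call lost without any 1 of the 5 libraries (0.0763 to 0.146, and 0.0297 to 0.146 over the alternatives). YSL6, a gene linked to metal export from chloroplasts, had a log2 difference of -0.21 (SE 0.10), YSL4 -0.23 (SE 0.18) and YSL8 -0.19 (SE 0.16). Of 8 other OPT genes 3 were expressed enough to test and none passed. OPT4 had a log2 difference of 0.37 (SE 0.13), OPT6 of 0.43 (SE 0.29) and OPT7 of 0.10 (SE 0.15). None of the 3 relatives of ZIF1 passed, with log2 differences from -0.09 to 0.21.

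The list called citrate and iron xylem loading holds FRD3, which exports citrate as the iron chelator of the xylem, and the ferroportin genes FPN1 and FPN2. FPN2 is on it beside its relative FPN1, and no role of FPN2 in xylem loading is implied. None of the 3 passed. FRD3 averaged 11.8 ± 0.774 FPKM (SD, n = 2) in GFP-GrxS5 roots and 16.4 ± 0.286 FPKM (SD, n = 3) in Col-0 roots, a log2 difference of -0.45 (SE 0.11; limma, Benjamini-Hochberg adjusted p = 0.0551). FRD3 passed with a filter of 5 FPKM or with quantile normalization, and its adjusted p over the alternatives was 0.0418 to 0.19 (limma, Benjamini-Hochberg). FPN1 and FPN2 had log2 differences of -0.77 (SE 0.23) and -0.48 (SE 0.16; limma, Benjamini-Hochberg adjusted p = 0.0926 and 0.119). They were -0.50 and -0.71 without GFP-GrxS5 replicate 1, and -1.03 and -0.24 without GFP-GrxS5 replicate 2.

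Of 17 genes listed as regulators, all tested, 7 fell and 0 rose, beside 2.35% and 4.73% of all tested genes. Their median log2 difference was -0.40, beside 0.01 over all tested genes. Whether the listed regulators act on the 9 members was not tested. The list was chosen with earlier results of these data known. The falls were FIT, MYB72, MYB10 and all 4 bHLH genes of subgroup Ib. bHLH100 averaged 4.86 ± 2.56 FPKM (SD, n = 2) in GFP-GrxS5 roots and 17.0 ± 1.59 FPKM (SD, n = 3) in Col-0 roots, a log2 change of -1.69 (SE 0.26; limma, Benjamini-Hochberg adjusted p = 0.0111). bHLH39 averaged 14.0 ± 2.095 FPKM (SD, n = 2) in GFP-GrxS5 roots and 34.0 ± 4.98 FPKM (SD, n = 3) in Col-0 roots, a log2 change of -1.22 (SE 0.15; limma, Benjamini-Hochberg adjusted p = 0.00456). bHLH38, MYB72 and FIT had log2 changes of -1.82, -2.33 and -0.76 (SE 0.12, 0.19 and 0.10). MYB10, known to act with MYB72 upstream of NAS4 and named after its values were seen, had 6.92 and 9.34 FPKM in the GFP-GrxS5 libraries, against 16.4, 13.3 and 20.5 FPKM in the Col-0 libraries. Its log2 change of -0.95 (SE 0.20; limma, Benjamini-Hochberg adjusted p = 0.0341) was not called when Col-0 replicate 1, Col-0 replicate 3 or any GFP-GrxS5 replicate was left out, with 0.0271 to 0.147 over the alternatives. bHLH101, at -1.06 (SE 0.21), was not called without Col-0 replicate 1 or 2 or GFP-GrxS5 replicate 2 (adjusted p up to 0.117, limma with Benjamini-Hochberg; 0.0244 to 0.117 over the alternatives). The zinc sensors bZIP19 and bZIP23 and the copper regulator SPL7 had log2 differences of -0.19 (SE 0.10), -0.40 (SE 0.25) and -0.05 (SE 0.09) and did not pass. Without GFP-GrxS5 replicate 1 those of bZIP19 and bZIP23 were -0.33 and -0.80, and without GFP-GrxS5 replicate 2 they were -0.06 and 0.0053. The other regulators that did not pass went both ways. PYE, bHLH34 and BTS had log2 differences of -0.23, -0.44 and -0.16 (SE 0.19, 0.21 and 0.11). URI, bHLH104, ILR3 and bHLH115 had 0.40, 0.24, 0.07 and 0.05 (SE 0.12, 0.07, 0.07 and 0.08).

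**Figure D4:**
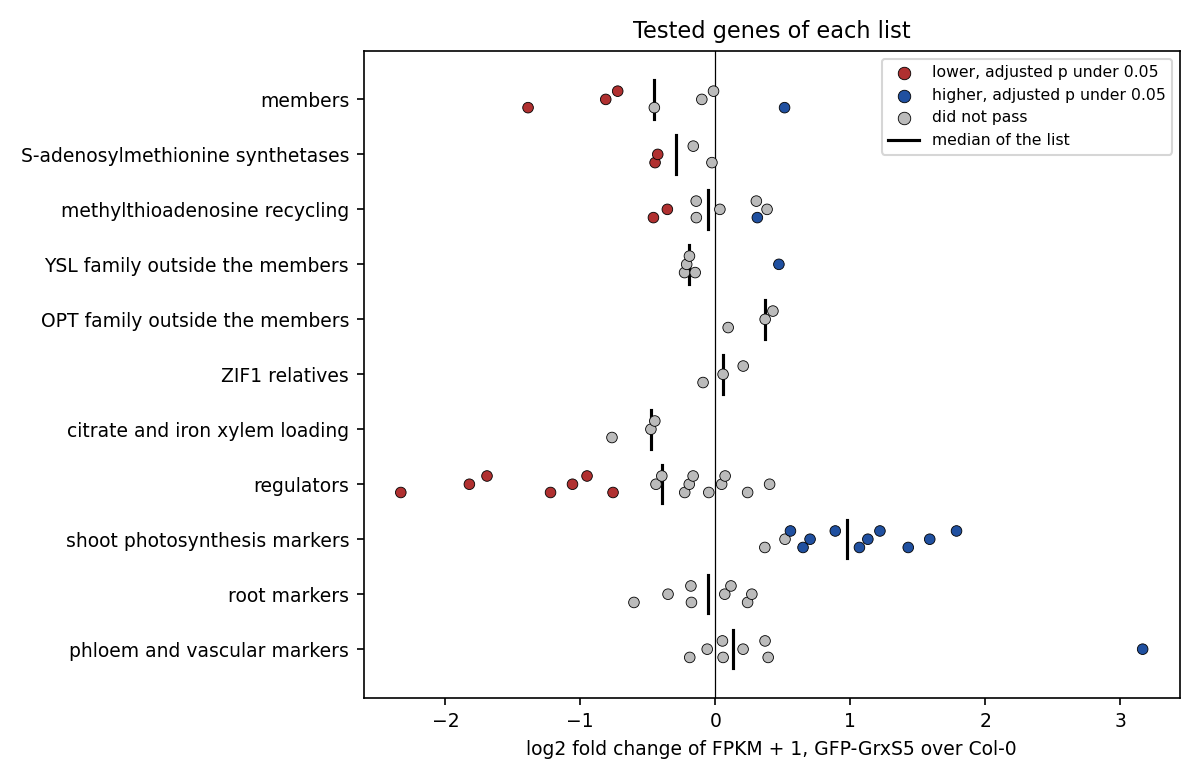
Log2 fold change of FPKM + 1 (x axis, GFP-GrxS5 over Col-0) of each tested gene in the 9 members and in 10 other lists (rows), red for lower, blue for higher and grey for not passed, with a black line at each list's median. The regulators reach -2.33, the photosynthesis markers lie above 0 and the root markers are all grey.

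For the member with the largest fall and the one with the largest rise, the genes with the most similar profile were taken by the root mean square distance between log2(FPKM + 1) values centred on each gene's mean over the 5 libraries. Nearest to NAS1 were NPF7.3, a nitrate transporter gene (distance 0.0863), AT2G16630 (0.0986) and F6'H1, which makes the coumarin scopoletin's precursor (0.09998). NPF7.3 had 131 and 113 FPKM in the GFP-GrxS5 libraries, against 286, 291 and 341 FPKM in the Col-0 libraries. AT2G16630 was low, with 1.52 and 0.737 FPKM in the GFP-GrxS5 libraries, against 3.89, 4.08 and 4.50 FPKM in the Col-0 libraries. The log2(FPKM + 1) scale understates changes at such levels. Nearest to ZIF1 were AT1G05840 (distance 0.0185), CNX7, a gene of molybdenum cofactor synthesis (0.0267), and NAC021 (0.0311). CNX7 had 60.2 and 60.4 FPKM in the GFP-GrxS5 libraries, against 41.5, 38.7 and 46.3 FPKM in the Col-0 libraries. Both distances and levels come from the same 5 libraries.

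The labels name a pair of library kits and a pair of sequencers without tying them to libraries, so kit, sequencer and genotype cannot be told apart. They also speak of RNA from roots and shoots, while each library is labelled root. Separate plants or cultures are not stated for the replicates, and the p-values therefore measure no more than how far these samples lie apart, part of which may be technical.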

How the data were processed

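Root RNA-seq of 2 GFP-GrxS5 and 3 Col-0 libraries was analysed from the FPKM values deposited by the authors, 1 table per library, with genome build TAIR10 per the submitters' processing notes. Not given in the sources used here are the aligner, the quantifier and how strand and shared reads were handled. Groups and replicate numbers came from the sample titles. Genes with at least 1 FPKM in at least 2 libraries and status OK in all 5 were kept, 19693 of 33557. On the log2(FPKM + 1) scale the genotypes were compared, as GFP-GrxS5 minus Col-0, by a linear model with a variance trend (limma 3.58.1, R 4.3.3, two-sided), with Benjamini-Hochberg adjustment over all kept genes at 0.05. This scale understates the change of low genes. The fit was tested on simulated data.

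Depth was taken from the step of 1 fragment in FPKM times length, over 2089 genes with 1 transcript of 1500 to 4000 bases and the same bounds in the files and in RefSeq TAIR10.1, and fragment numbers per gene are approximate. Printed gene positions are those of the files, counted from 1. Sequences came from RefSeq TAIR10.1, where all 28629 compared features lay on the same chromosome and 52.0% shared a start or an end exactly with the files. The coding sequences were aligned with Biopython 1.88.

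The members and the gene lists were chosen with earlier results of these data known. Named were all members, GrxS5, neighbours of members, at most 4 genes per pathway list with the smallest p, and the 3 genes nearest in profile to the members with the largest fall and rise. MYB10, bHLH101, the other subgroup Ib bHLH genes, bZIP19, bZIP23, SPL7, SUC2, APL, SEOR1, HKT1, PLT1 and RBCS2B were named after their values were seen. So were the other regulators that did not pass. Alternatives were other pseudocounts, filters, scalings and variance models, a replicate block and leaving out each library.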

Additional observations from a re-analysis of the deposited data

How the results depend on the processing

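NAS1 kept its direction and its call under all 13 alternatives. Over the 7 tested members 72 of 91 values kept direction and call, 16 lost the call and 3 changed sign. NAS2, OPT3 and YSL3 had no call to lose, and not passing counted as kept, so the 72 overstate how firm the calls were. The call was lost under 7 of the 13 alternatives for NAS4, 6 for ZIF1 and 3 for YSL2. The sign changes were all of OPT3, at 0.068 with the replicate block, and it ran from -0.0747 to 0.068 with 1 library left out. Replicate 3 exists only in Col-0, so the block takes up that library. The members' log2 changes with the block equal those without Col-0 replicate 3. For direction these 2 alternatives are therefore not separate checks. The 4 member calls became 2 with variances moderated without a trend, which left NAS1 and YSL2, and 1, NAS1, with the replicate block. Of 43 pathway list genes 5 passed without a trend and 5 with the block, against 13, and of all genes 582 and 594, against 1394. With 1 library left out, 1 to 3 members, 5 to 9 pathway genes and 521 to 821 of all genes passed, and the difference in the NAS1 share was -16.2 to -8.99 percentage points. A lone GFP-GrxS5 library is there assumed to vary like Col-0. Quantile normalization moved the share of higher genes among the calls to 54.9%, against 66.9%, and left the member calls at 4; no scaling moved the median of all genes by over 0.1. NAS4 lost its call with no filter on low values (limma, Benjamini-Hochberg adjusted p = 0.0531). Equal replicate numbers are not stated to mark a shared batch, and the differences between replicates 1 and 2 of the genotypes correlated at -0.03 over genes. Fewer samples or residual degrees of freedom are part of the block and of leaving a library out. NAS3 was listed at 0 in all libraries and was not fitted, and YSL1 was fitted only with no filter. The 10 photosynthesis markers that rose became 5 to 10 over the alternatives.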
